A study of Mus musculus with 20 samples.

Results

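This comparison set late 8-cell mouse embryos given siRNA against P300 beside control embryos of the same stage, gene by gene. It rests on 4 of the series' 20 libraries, chosen by their labels: 2 of wild-type controls and 2 of embryos whose genotype label reads P300 knockdown. All embryos were grown from zygotes in KSOM medium, lysed whole, and turned into cDNA libraries by Smart-seq2, a method for very small RNA inputs. The other libraries hold earlier stages and further late 8-cell treatments, and the early 8-cell pair of groups (4 libraries, none shared) was used to see where the late response differed. How many embryos made up a library, whether replicates came from separate cultures, the siRNA sequence and what the control embryos received are not given in the sources used here. The p-values therefore measure the spread between these libraries, which may be technical. Whole embryos were lysed, so fewer cells of a type and less RNA per cell cannot be told apart.

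p300, encoded by Ep300, and its paralogue CBP, encoded by Crebbp, are coactivators that place acetyl and crotonyl groups on histone lysines at enhancers and promoters. During the 8-cell stage mouse blastomeres compact, polarise and begin to divide their fates. TEAD4 with its coactivators YAP and TAZ turns on Cdx2 and Gata3 in the outer cells that will form the trophectoderm, whereas Pou5f1 and Nanog sustain the inner, pluripotent cells.

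Ep300 did not separate the groups at this stage. Its level was 22.03 and 15.2 CPM in controls against 16.2 and 13.2 CPM under siRNA (-0.36 ± 0.37, adjusted p = 0.4997), and the groups overlapped. Crebbp read 48.5 and 36.3 CPM in controls against 47.5 and 48.9 CPM under siRNA (0.19 ± 0.24, adjusted p = 0.59). The knockdown cannot be checked from the target's RNA here, so every direction rests on the labels. Most defining markers of the embryo were lower under siRNA. Of 10 such markers 7 were called, each lower in the siRNA libraries. Their summed level was 5697 and 5633 CPM in controls against 1499 and 2208 CPM under siRNA. The 3 without a call were the keratins Krt8 and Krt18 and the coreceptor gene Tdgf1, which had no count in the 4 libraries.

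Total counts were 22715816 and 21227645 in the controls and 3202332 and 20252948 in the siRNA libraries, so siRNA replicate 1 is the shallow one. Log2 CPM, the gene counts scaled to a common library total, correlated at 0.994 between the controls and at 0.966 between the siRNA libraries. At an equal depth of 3202332 counts, 14501 and 14450 genes were detected in the controls and 15920 and 16804 in the siRNA libraries. The 100 genes with the most counts held 24.3% and 24.2% of the control counts and 20.7% and 19.5% of the siRNA counts. The groups also differed in the TMM composition factors, which were 0.858 and 0.854 against 1.18 and 1.21. In what follows, a level is a CPM scaled by TMM, a change is a log2 fold change ± SE of siRNA over control, and a gene rose, fell or was called where its adjusted p was under 0.05 over all genes tested.

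Of 16603 genes tested, 4645 (28%) were called, 2266 (13.6%) higher and 2379 (14.3%) lower in the siRNA libraries. The rises were the larger changes. At least 4-fold rises numbered 1475 against 399 falls of that size, and among changes of at least 2-fold the counts were 2060 and 1594. The groups did not overlap for 10986 genes (66.2%). The balance of directions depended on the scaling. With total counts alone the all-gene median was shifted up by 0.48 and 79.4% of the calls were higher, and with DESeq2 size factors the shift was 0.14 and 58.4% were higher, against 48.8% with TMM. Leaving out 1 library left fewer calls, with 2296 and 2215 without control replicate 1 or 2, and 3307 and 3425 without siRNA replicate 1 or 2. The rises then numbered 881, 831, 1676 and 1396 and the falls 1415, 1384, 1631 and 2029, in the same order.

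Several early trophectoderm factors were lower, while a few later ones were higher. Among 20 transcription factors of this lineage, 6 fell and 3 rose, and the list's median was 0.53, beside 0.06 over all genes. The rises, at 15%, were near the 13.6% over all genes. The median was 0.08 without siRNA replicate 2, 0.32 without control replicate 1 and 0.22 at equal depth. Gata3, which acts beside Cdx2 downstream of TEAD4, read 81.3 and 83.1 CPM in controls against 8.23 and 7.597 CPM under siRNA (-3.38 ± 0.72, adjusted p = 0.00226). Elf3, an epithelial ETS factor, read 160.1 and 198 CPM in controls against 17.3 and 25.3 CPM under siRNA (-3.05 ± 0.39, adjusted p = 3.32e-05). Both siRNA libraries were far below both controls for these factors. Tfap2c, an AP-2 factor needed for polarisation, fell from 134 and 129.5 CPM to 26.8 and 35.98 CPM (-2.05 ± 0.23, adjusted p = 1.14e-05). Tead4 fell from 122 and 96.7 CPM to 28.4 and 42.9 CPM (-1.60 ± 0.28, adjusted p = 0.000452). Cdx2 itself held 15.7 and 13.9 CPM in the controls against 0 and 0.204 CPM. Its upper siRNA value is 5 counts. The 3 that rose came from low control levels. Esx1, a placental homeobox gene, went from 1.13 and 0.552 CPM to 6.37 and 14.7 CPM (3.70 ± 0.59, adjusted p = 0.000213), and Gata2, a GATA factor of later trophoblast, from 0.0513 and 0.110 CPM to 3.98 and 2.696 CPM (5.20 ± 1.17, adjusted p = 0.00374). The Gata2 call was lost without control replicate 1 (adjusted p = 0.0563). Eomes, the T-box factor of trophoblast stem cells, did not separate the groups, at 3.34 and 6.29 CPM in controls against 2.92 and 5.35 CPM under siRNA (-0.18 ± 0.68, adjusted p = 0.881).

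**Figure D1:**
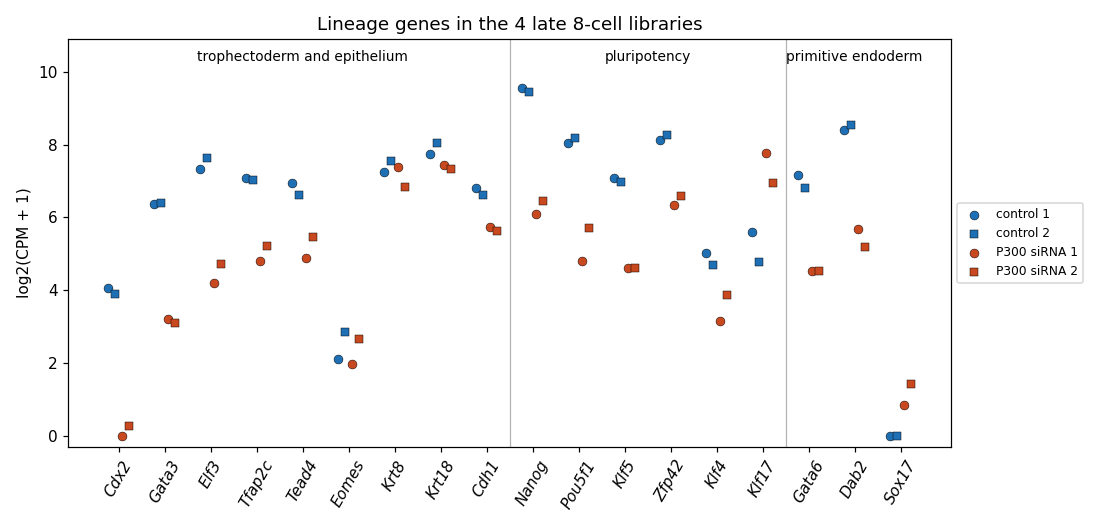
Levels of 18 lineage genes in each late 8-cell library, as log2(CPM + 1), with circles for replicate 1 and squares for replicate 2 of each group. Gata3, Elf3, Nanog and Dab2 lie well below both controls in both siRNA libraries, whereas Eomes and Krt8 overlap.

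Products of the trophectoderm epithelium fell more often than they rose. Of 26 tested, 10 fell and 5 rose, with a median of -1.30 (7 and 5 with total counts only, and 1 to 4 rises with any 1 library left out). Ptges, a prostaglandin E synthase, held 170.04 and 202 CPM in controls against 19.6 and 29.8 CPM under siRNA (-2.89 ± 0.46, adjusted p = 0.00021). Fabp5, a fatty acid binding protein, held 105 and 111 CPM in controls against 8.496 and 20.3 CPM under siRNA (-2.84 ± 0.49, adjusted p = 0.000455). Enpep, an aminopeptidase of the apical membrane, fell from 62.1 and 85.6 CPM to 2.65 and 2.45 CPM (-4.87 ± 0.69, adjusted p = 8.32e-05). The keratin pair that forms the first epithelial filaments had no call. Krt8 read 150.1 and 187 CPM in controls against 165 and 113 CPM under siRNA (-0.28 ± 0.46, adjusted p = 0.689) and Krt18 215 and 260.4 CPM in controls against 173 and 159.6 CPM under siRNA (-0.51 ± 0.58, adjusted p = 0.54). Lgals3, a galectin, went the other way, from 6.16 and 8.33 CPM to 78.3 and 83.97 CPM (3.49 ± 0.49, adjusted p = 7.1e-05), as did the claudin Cldn6, from 147 and 207 CPM to 318 and 418 CPM (1.06 ± 0.22, adjusted p = 0.00222), whose call was lost without control replicate 1 (adjusted p = 0.0563).

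Of 15 transporter genes that later serve the blastocoel, 5 were lower and 2 higher (8 higher with total counts only). The share of rises, 13.3%, was near the 13.6% over all genes. Their median was 0.30 and turned to between -0.01 and -0.24 without control replicate 2 or either siRNA library. The aquaglyceroporin Aqp3 read 245 and 219 CPM in controls against 32.7 and 30.8 CPM under siRNA (-2.87 ± 0.33, adjusted p = 1.31e-05). Slc2a8, a glucose transporter of the early embryo, fell from 76.7 and 82.1 CPM to 7.43 and 9.56 CPM (-3.20 ± 0.29, adjusted p = 2.71e-06). Aqp11, an intracellular aquaporin, rose instead, from 10.6 and 8.49 CPM to 40.1 and 32.4 CPM (1.92 ± 0.30, adjusted p = 0.000205).

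Polarity and junction genes fell more often than they rose with TMM scaling, but not with total counts only. Of 41 members, 12 fell and 1 rose (median -0.57), but with total counts only the counts were 7 and 7 and the median -0.09. Without siRNA replicate 1 the TMM median was -0.26. The rise was Vcl, the adherens junction protein vinculin (1.01 ± 0.35, adjusted p = 0.0407), whose call was lost with any 1 library left out (adjusted p of 0.0758 to 0.196). Pard6b, which links CDC42 to atypical protein kinase C at the apical cap, fell from 26.7 and 32.98 CPM to 7.96 and 6.17 CPM (-2.11 ± 0.39, adjusted p = 0.000823). Ocln, the tight junction protein occludin, fell from 108 and 117 CPM to 36.9 and 24.1 CPM (-1.91 ± 0.31, adjusted p = 0.000286). Cdh1, the E-cadherin of compaction, read 110.5 and 96.7 CPM in controls against 52.04 and 48.8 CPM under siRNA (-1.04 ± 0.29, adjusted p = 0.014). That call was lost with total counts only (adjusted p = 0.138) and without control replicate 1, siRNA replicate 1 or siRNA replicate 2 (adjusted p = 0.0924, 0.0512 and 0.0776). Among 28 Hippo pathway genes, 3 fell, 5 rose and 20 had no call (0 to 3 rises with any 1 library left out, and 10 with total counts only). Over all genes 14.3% fell and 13.6% rose, beside 10.7% and 17.9% of the Hippo genes, so the Hippo counts lie near those shares. Wwtr1, which encodes TAZ, fell from 89.7 and 76.8 CPM to 30.3 and 27.2 CPM (-1.54 ± 0.25, adjusted p = 0.000228). Yap1 did not separate the groups, at 26.6 and 23.1 CPM in controls against 33.5 and 22.8 CPM under siRNA (0.15 ± 0.27, adjusted p = 0.715).

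Genes of the pluripotency network were mostly lower. Of 37 members tested, 20 fell and 2 rose, with a median of -1.29. The count of falls stayed at 18 to 20 with any 1 library left out and was 18 with total counts only. Nanog, a homeobox factor of the inner cell mass, read 747 and 699 CPM in controls against 67.7 and 86.01 CPM under siRNA (-3.23 ± 0.53, adjusted p = 0.000261). Pou5f1, which encodes OCT4, read 265 and 287 CPM in controls against 26.8 and 51.2 CPM under siRNA (-2.79 ± 0.45, adjusted p = 0.000243). Both siRNA libraries lay several-fold under both controls for either gene. Klf5, a Krüppel-like factor of both early lineages, fell from 135 and 124 CPM to 23.6 and 23.7 CPM (-2.45 ± 0.24, adjusted p = 4.48e-06), and Klf4 from 31.6 and 25.04 CPM to 7.96 and 13.6 CPM (-1.35 ± 0.31, adjusted p = 0.00379). Zfp42, the marker also called Rex1, fell from 281 and 306 CPM to 80.4 and 94.7 CPM (-1.74 ± 0.21, adjusted p = 2.28e-05). In each of these the siRNA values lay under both controls. Fbxo15, an F-box gene bound by OCT4 and SOX2, fell from 5182 and 4652 CPM to 2072 and 1654 CPM (-1.40 ± 0.17, adjusted p = 2.5e-05). Mybl2, a MYB factor of the cell cycle in stem cells, fell from 127 and 114 CPM to 24.7 and 32.8 CPM (-2.05 ± 0.23, adjusted p = 1.02e-05). Sox2 was near its floor in both groups, at 0 and 0.441 CPM and 0.265 and 0.368 CPM. Klf17, a Krüppel-like factor that is high in the 2-cell embryo, rose from 47.8 and 26.2 CPM to 218 and 122 CPM (2.19 ± 0.47, adjusted p = 0.00252), with an adjusted p of 0.0505 without control replicate 2.

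Primitive endoderm and FGF genes are read beside the 13.6% of all genes called higher and 14.3% lower. Of 22 primitive endoderm genes, 5 rose and 4 fell (median 0.48, -0.05 without siRNA replicate 2, and 2 to 5 rises and 2 to 3 falls with any 1 library left out; 0.24 without control replicate 2). Gata6, the lineage's early factor, read 143 and 111 CPM in controls against 22.3 and 22.1 CPM under siRNA (-2.52 ± 0.57, adjusted p = 0.00358). Dab2, an endocytic adaptor, fell from 336 and 368 CPM to 50.4 and 35.6 CPM (-3.05 ± 0.57, adjusted p = 0.000873). Sparc, a matrix glycoprotein, rose from 7.598 and 8.604 CPM to 112 and 132 CPM (3.91 ± 0.57, adjusted p = 0.000102). Sox17, a later factor of this lineage, was absent from the controls and reached 0.796 and 1.72 CPM, at least 15.7-fold higher (floor of 3 counts over the group, counting error only). The call for Sox17 was lost without either control or siRNA replicate 2 (adjusted p = 0.0981, 0.0972 and 0.0787). In the FGF and ERK list, 5 of 31 fell and 2 rose, and its median of -0.25 became 0.23 with total counts only (3 to 5 falls and a median of -0.37 to -0.10 with any 1 library left out). The FGF share of rises was under the all-gene share and that of falls near it. The receptor Fgfr2 fell from 38.1 and 40.3 CPM to 7.699 and 10.4 CPM (-2.09 ± 0.50, adjusted p = 0.00525), and Spry2, a feedback inhibitor induced by ERK, from 70.8 and 80.1 CPM to 30.000 and 27.6 CPM (-1.39 ± 0.31, adjusted p = 0.00332). The immediate early gene Egr1 rose from 0 and 0.110 CPM to 3.72 and 4.29 CPM (6.01 ± 1.05, adjusted p = 0.000475). Of 18 genes of embryonic stem cells and epiblast, 8 rose and 4 fell (1 to 3 falls with any 1 library left out). Crabp2, a retinoic acid binding protein, rose from 0.205 and 0.0552 CPM to 4.51 and 12.3 CPM (5.93 ± 1.07, adjusted p = 0.00061). Nodal, a TGF-beta ligand, had no control count and read 2.39 and 10.6 CPM, at least 81.3-fold higher. Dnmt3b, a de novo DNA methyltransferase, fell from 58.2 and 55.2 CPM to 8.76 and 20.6 CPM (-1.89 ± 0.41, adjusted p = 0.00239).

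**Figure D2:**
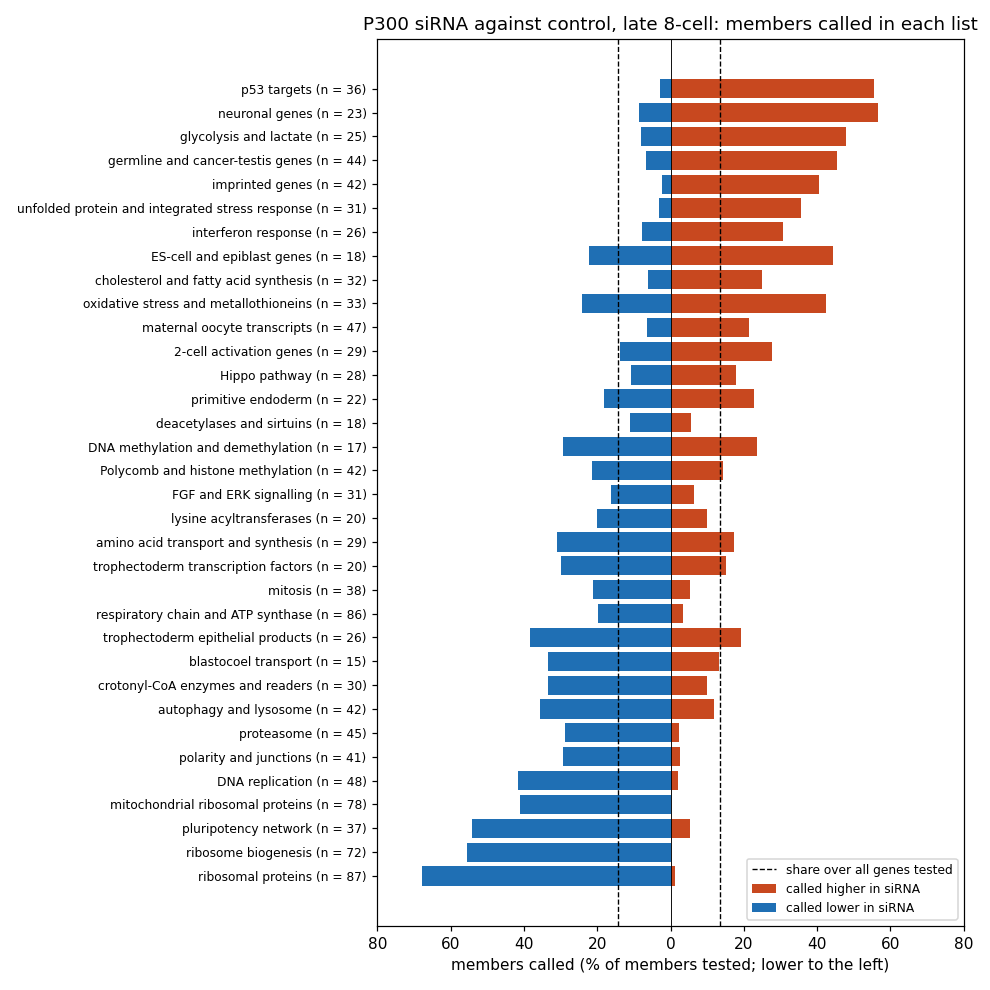
Share of the tested members of each gene list called higher (to the right) or lower (to the left) in the siRNA libraries, with n members in brackets and dashed lines at the shares over all genes, 13.6% and 14.3%. The p53 and glycolysis lists lie far to the right and the ribosomal protein and pluripotency lists far to the left.

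Many stress genes were higher in the siRNA libraries. Of 33 oxidative stress genes, 14 rose and 8 fell (median 0.66, 0.29 without siRNA replicate 2). The rises were 9 to 13 with any 1 library left out, and the falls 3 with total counts only. Hmox1, the inducible haem oxygenase, read 29.9 and 30.6 CPM in controls against 633 and 610.03 CPM under siRNA (4.36 ± 0.40, adjusted p = 3.04e-06). Fth1, the ferritin heavy chain that stores iron, read 634 and 674 CPM in controls against 1629 and 1594 CPM under siRNA (1.30 ± 0.21, adjusted p = 0.000203). Each pair of siRNA values was tight and clear of the controls. Gpx3, a secreted glutathione peroxidase, rose from 0.411 and 0.607 CPM to 27.3 and 51.4 CPM (6.27 ± 0.62, adjusted p = 4.48e-06). The glutathione transferase Gstm1 rose from 3.34 and 1.88 CPM to 107 and 72.5 CPM (5.10 ± 0.54, adjusted p = 7.98e-06), and the peroxiredoxin Prdx1 from 806 and 756 CPM to 2573 and 2129.7 CPM (1.59 ± 0.16, adjusted p = 6.37e-06). Other members of the list were lower. Sod2, the mitochondrial superoxide dismutase, fell from 377 and 465 CPM to 171 and 219.8 CPM (-1.10 ± 0.21, adjusted p = 0.000959). Gsto1, another glutathione transferase, fell from 579 and 733 CPM to 88.7 and 87.2 CPM (-2.90 ± 0.44, adjusted p = 0.000139).

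The small heat shock protein gene Hspb1 read 43.9 and 60.3 CPM in controls against 453 and 811 CPM under siRNA (3.60 ± 0.28, adjusted p = 8.96e-07). Hspa8, Hsp90aa1 and Hsp90ab1, abundant cytosolic chaperone genes, fell. Hspa8, the constitutive HSC70, read 11311 and 11949 CPM in controls against 6724 and 4064 CPM under siRNA (-1.11 ± 0.20, adjusted p = 0.000705). Hsp90aa1 fell from 9339 and 9249 CPM to 4863 and 3559 CPM (-1.14 ± 0.23, adjusted p = 0.00148) and Hsp90ab1 from 8228 and 7890.3 CPM to 3877 and 3519.8 CPM (-1.12 ± 0.16, adjusted p = 9.17e-05). Of the unfolded protein list, several chaperone genes of the endoplasmic reticulum rose. Hspa5, which encodes the lumenal chaperone BiP, read 294 and 322 CPM in controls against 879.6 and 879 CPM under siRNA (1.51 ± 0.22, adjusted p = 9.47e-05). Hsp90b1, the HSP90 of the same compartment, read 145 and 155 CPM in controls against 343 and 366 CPM under siRNA (1.25 ± 0.19, adjusted p = 0.000139). The siRNA values of each gene lay close together and above both controls. Dnajc3, a BiP cochaperone, rose from 69.6 and 75.4 CPM to 224 and 188 CPM (1.505 ± 0.22, adjusted p = 9.4e-05). Of 31 genes of the unfolded protein and integrated stress responses, 11 rose and 1 fell (median 0.60, 0.32 without siRNA replicate 2, 7 to 10 rises with any 1 library left out, 19 with total counts only). Atf6, which encodes a membrane-bound sensor of this response, was the member that fell, from 42.1 and 37.2 CPM to 18.3 and 17.6 CPM (-1.14 ± 0.28, adjusted p = 0.00567), and its call was lost with total counts only (adjusted p = 0.0823) and without control replicate 1 (adjusted p = 0.053).

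Promoters of 4 of these genes are shown because they carry the sequence that the ER stress sensors' factors are known to bind, the ER stress element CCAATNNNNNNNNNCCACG. Calr, the lumenal lectin chaperone calreticulin, also rose, from 182 and 182 CPM to 394 and 421 CPM (1.16 ± 0.23, adjusted p = 0.00151). These 4 were chosen after their values were seen. Each line gives the 250 bases before the start site, 5′ to 3′ on the gene's strand, from the RefSeq promoter table (GRCm38.p6), with matches to the element on either strand in capitals.
Hspa5 (chr2:34771840-34772089, plus strand): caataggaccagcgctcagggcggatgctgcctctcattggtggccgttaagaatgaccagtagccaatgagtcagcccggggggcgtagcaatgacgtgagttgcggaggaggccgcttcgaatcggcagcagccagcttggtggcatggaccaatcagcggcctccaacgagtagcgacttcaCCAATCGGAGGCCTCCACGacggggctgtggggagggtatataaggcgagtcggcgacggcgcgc
Hsp90b1 (chr10:86705445-86705694, minus strand): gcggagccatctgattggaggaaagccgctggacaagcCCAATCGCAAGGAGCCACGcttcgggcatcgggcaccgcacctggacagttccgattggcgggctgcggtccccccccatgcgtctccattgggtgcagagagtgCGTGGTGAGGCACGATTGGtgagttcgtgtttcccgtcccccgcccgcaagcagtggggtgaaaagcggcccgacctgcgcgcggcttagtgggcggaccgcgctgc
Calr (chr8:84846932-84847181, minus strand): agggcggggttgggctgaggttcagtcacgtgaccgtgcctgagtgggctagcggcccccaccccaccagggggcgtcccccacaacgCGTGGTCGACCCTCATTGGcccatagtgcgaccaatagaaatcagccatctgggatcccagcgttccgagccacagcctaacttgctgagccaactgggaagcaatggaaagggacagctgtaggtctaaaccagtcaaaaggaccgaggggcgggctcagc
Dnajc3 (chr14:118937682-118937931, plus strand): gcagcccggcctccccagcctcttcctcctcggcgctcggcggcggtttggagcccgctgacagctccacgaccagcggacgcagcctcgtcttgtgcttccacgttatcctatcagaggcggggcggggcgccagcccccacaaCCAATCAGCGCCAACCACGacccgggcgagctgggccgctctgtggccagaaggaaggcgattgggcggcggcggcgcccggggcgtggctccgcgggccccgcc

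The element was searched on both strands from 250 bases before to 50 bases after the start, in the first promoter listed for 13036 of the 16603 genes tested. It was found in 20 of them (0.153%), and in 7 of the 28 unfolded protein genes with a promoter (25%). Counted from the start site, the matches begin at position -65 in Hspa5, -162 in Calr and -105 in Dnajc3, and at -212 and -107 in Hsp90b1. Of the 20 genes with the element, 7 rose (Calr, Calr4, Dnajc3, Hsp90b1, Hspa5, Xlr3b and Xlr3c) and 2 fell (Alg12 and Pan2). The other 11 had no call, Canx, Creld2 and Pdia6 among them. Over all genes tested 13.6% rose and 14.3% fell. The Xlr3 genes are near-identical copies that share reads, so they are not separate cases. Of promoters of genes at least 2-fold higher, 7 of 1604 (0.436%) held the element, and of those at least 2-fold lower, 2 of 1263 (0.158%). A match describes these letters and is not a site in use. The CpG content of promoters, as observed over expected, had a median of 0.694 for the higher genes, 0.736 for the lower genes and 0.715 for all.

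Many targets of p53, the transcription factor of the DNA damage response, were higher. Of 36 tested, 20 rose and 1 fell (median 1.12), with 10 to 16 rises when any 1 library was left out. Ccng1, which encodes cyclin G1, read 143 and 205 CPM in controls against 1116 and 767 CPM under siRNA (2.44 ± 0.36, adjusted p = 0.000127). Btg2, an antiproliferative gene, read 22.9 and 28.7 CPM in controls against 214 and 265 CPM under siRNA (3.21 ± 0.35, adjusted p = 8.85e-06). Both siRNA libraries exceeded both controls for these genes. Trp53inp1, which promotes p53 activity, rose from 73.2 and 92.1 CPM to 681 and 406 CPM (2.71 ± 0.31, adjusted p = 1.47e-05), and the BH3-only gene Pmaip1 from 67.1 and 90.95 CPM to 434 and 233 CPM (2.07 ± 0.32, adjusted p = 0.000183). Cdkn1a, the cyclin-dependent kinase inhibitor p21, read 232 and 203 CPM in controls against 327 and 601 CPM under siRNA (1.09 ± 0.34, adjusted p = 0.0229), and its call was lost without either control or siRNA replicate 2 (adjusted p = 0.0863, 0.15 and 0.307). Trp53 itself overlapped between groups, at 131 and 149 CPM in controls against 103 and 133 CPM under siRNA (-0.24 ± 0.28, adjusted p = 0.543). Tigar, a phosphatase that lowers glycolytic flux, was the member that fell, from 861 and 777 CPM to 338 and 400.2 CPM (-1.15 ± 0.20, adjusted p = 0.000416).

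Glycolytic enzymes were higher. Of 25 genes, 12 rose and 2 fell (median 1.29, 8 to 13 rises with any 1 library left out). The lactate dehydrogenase subunits read 67.1 and 59.6 CPM in controls against 378 and 503 CPM under siRNA for Ldha (2.80 ± 0.30, adjusted p = 8.85e-06). For Ldhb, the subunit of oxidative tissues, they read 2.88 and 5.63 CPM in controls against 67.4 and 95.000 CPM under siRNA (4.27 ± 0.40, adjusted p = 3.52e-06). Each subunit was several-fold higher in both siRNA libraries. Enolase 1 rose from 59.5 and 65.9 CPM to 310.1 and 337 CPM (2.37 ± 0.26, adjusted p = 8.85e-06) for Eno1, and pyruvate kinase from 49.5 and 70.05 CPM to 241 and 314 CPM (2.22 ± 0.24, adjusted p = 8.85e-06) for Pkm. The 2 that fell were Hk2 and Slc2a3. Hk2, a hexokinase, fell from 49.3 and 41.7 CPM to 8.496 and 5.96 CPM (-2.70 ± 0.85, adjusted p = 0.0253), though this call was lost in each fit that left out 1 library and with total counts only (adjusted p = 0.0521). Slc2a3, a high-affinity glucose transporter, fell from 181 and 157 CPM to 96.1 and 49.3 CPM (-1.23 ± 0.28, adjusted p = 0.0033). Of 32 genes of cholesterol and fatty acid synthesis, 8 rose and 2 fell (median 0.18, -0.09 to 0.31 with any 1 library left out, and 5 to 7 rises with any 1 library left out). Idi1, an isoprenoid enzyme, rose from 67.9 and 71.04 CPM to 209.7 and 191 CPM (1.53 ± 0.33, adjusted p = 0.00239), and Elovl6, a fatty acid elongase, fell from 389.8 and 398 CPM to 163 and 138 CPM (-1.39 ± 0.30, adjusted p = 0.0024). Among 29 genes of amino acid supply, 9 fell and 5 rose, and the median of -0.09 turned positive with total counts only (0.40) or DESeq2 size factors (0.05). It was -0.27 to 0.31 with any 1 library left out. Phgdh, the first enzyme of serine synthesis, fell from 475 and 438 CPM to 88.1 and 114 CPM (-2.17 ± 0.30, adjusted p = 6.32e-05), whereas Psph, the last one, rose from 27.5 and 27.2 CPM to 94.8 and 108 CPM (1.89 ± 0.21, adjusted p = 1.14e-05).

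Genes of protein synthesis were lower as families. Of 87 ribosomal protein genes, 59 fell and 1 rose (median -0.87). Their summed level was 80082 and 79983 CPM in controls against 33275 and 53472 CPM under siRNA, so siRNA replicate 1, the shallow library, was the lowest. Without it 33 fell (median -0.53), without siRNA replicate 2 79 (median -1.42), without control replicate 1 37, and with total counts only 19 (median -0.38). Rpl5, a 60S protein that carries 5S RNA, read 2751 and 2714 CPM in controls against 1116 and 1202 CPM under siRNA (-1.24 ± 0.17, adjusted p = 6.65e-05). Rpl3 fell from 1385 and 1401 CPM to 516 and 655 CPM (-1.25 ± 0.18, adjusted p = 9.17e-05). The exception was Rpl3l, the striated muscle copy of Rpl3, which rose from 0.565 and 0.662 CPM to 3.45 and 5.23 CPM (2.84 ± 0.53, adjusted p = 0.000833). Of 72 ribosome biogenesis genes, 40 fell and 0 rose (median -0.69, 18 falls with total counts only). Wdr12, of the PeBoW complex, read 372 and 402 CPM in controls against 115 and 111 CPM under siRNA (-1.78 ± 0.21, adjusted p = 2.12e-05). Polr1b, the second-largest subunit of RNA polymerase I, fell from 88.5 and 77.9 CPM to 29.5 and 28.7 CPM (-1.52 ± 0.22, adjusted p = 8.49e-05).

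The mitochondrial and proteasome families were less steady. For mitochondrial ribosomal proteins 32 of 78 fell and 0 rose (median -0.54), with 14 to 37 falls when any 1 library was left out and 9 with total counts only. Mrpl17, of the large subunit, fell from 364 and 352 CPM to 94.8 and 128 CPM (-1.68 ± 0.22, adjusted p = 5.08e-05). For the respiratory chain and ATP synthase, 17 of 86 fell and 3 rose (median -0.34). These are 19.8% and 3.49%, beside 14.3% and 13.6% over all genes. The direction of that list rested on the library. Without siRNA replicate 1 there were 5 falls and 12 rises (median 0.06), without siRNA replicate 2 42 and 2 (median -0.90), and with total counts only 0 and 11 (median 0.15). Without control replicate 1 or 2 there were 6 and 3 falls. In the proteasome list 13 of 45 fell and 1 rose (median -0.40, 0.07 with total counts only, 8 falls without control replicate 2). Psmd3, a regulatory particle subunit, fell from 212 and 201 CPM to 69.8 and 77.4 CPM (-1.48 ± 0.19, adjusted p = 3.59e-05). The immunoproteasome subunit Psmb8 was the member that rose, from 2 counts in control replicate 1 to 1.59 and 4.33 CPM (adjusted p = 0.00724), a call lost without control replicate 2 or siRNA replicate 2 (adjusted p = 0.0867 and 0.0592).

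Replication and mitosis genes fell more often than they rose with TMM scaling. Of 48 DNA replication genes, 20 fell and 1 rose (median -0.48). With total counts only 8 fell and 5 rose, and the median was near 0. Mcm3, of the replicative helicase, read 171 and 162 CPM in controls against 49.1 and 56.98 CPM under siRNA (-1.64 ± 0.21, adjusted p = 3.49e-05). Tyms, thymidylate synthase, read 547 and 572 CPM in controls against 147 and 150.1 CPM under siRNA (-1.91 ± 0.26, adjusted p = 5.12e-05). Of 38 mitosis genes 8 fell and 2 rose (median -0.30), which is 21.1% and 5.26% beside 14.3% and 13.6% over all genes. With total counts only 2 fell and 10 rose, and the median was 0.18. With any 1 library left out 5 to 7 fell. Cdk1, the mitotic kinase, fell from 896 and 1056 CPM to 449 and 539 CPM (-0.98 ± 0.18, adjusted p = 0.000694), and Aurka, a spindle pole kinase, from 1163 and 1113 CPM to 567 and 489 CPM (-1.11 ± 0.20, adjusted p = 0.000769). Pttg1, which encodes securin, rose from 217 and 189 CPM to 391 and 614 CPM (1.31 ± 0.28, adjusted p = 0.00227). In the autophagy and lysosome list 15 of 42 fell and 5 rose (median -0.34, 0.14 with total counts only, 3 to 5 rises with any 1 library left out). Gabarapl2, an ATG8 protein of autophagosomes, read 3170.3 and 3394 CPM in controls against 1166 and 1136 CPM under siRNA (-1.51 ± 0.20, adjusted p = 5.4e-05). The lysosomal membrane protein Lamp2 and the protease Ctsl rose, Lamp2 from 558 and 578 CPM to 1914 and 1045 CPM (1.38 ± 0.25, adjusted p = 0.000622) and Ctsl from 594 and 500.4 CPM to 1473 and 1172 CPM (1.27 ± 0.19, adjusted p = 0.000135).

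**Figure D3:**
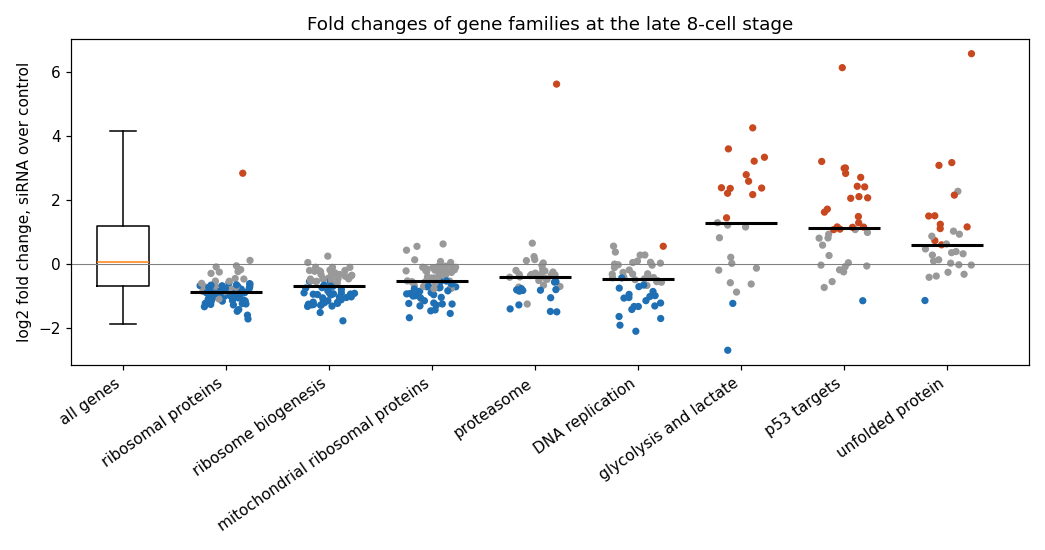
Log2 fold changes of siRNA over control for the tested members of 8 gene lists, 1 point per gene (red called higher, blue called lower, grey no call) with a bar at the list's median. The box on the left gives the quartiles, median and 5th to 95th percentiles over all 16603 genes. Ribosomal proteins have a median of -0.87 and glycolysis genes one of 1.29.

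Enzymes that add or remove histone acyl groups were followed next. Of 20 lysine acyltransferases, 4 fell and 2 rose, against 14.3% and 13.6% of all genes (9 rises with total counts only, 0 to 3 with any 1 library left out), and the median was 0.08, between -0.08 and 0.14 with 1 library left out. Elp3, the catalytic subunit of Elongator, read 95.8 and 94.8 CPM in controls against 20.97 and 18.6 CPM under siRNA (-2.28 ± 0.27, adjusted p = 2.06e-05). Kat2a, which encodes GCN5, read 28.4 and 24.8 CPM in controls against 9.56 and 9.72 CPM under siRNA (-1.46 ± 0.30, adjusted p = 0.00169). Of 18 deacetylases 2 fell and 1 rose. Hdac1 fell from 564 and 546 CPM to 312 and 322 CPM (-0.81 ± 0.16, adjusted p = 0.00168) and Sirt1, an NAD-dependent deacetylase, rose from 65.7 and 56.6 CPM to 162 and 117 CPM (1.19 ± 0.26, adjusted p = 0.00299). Hdac1 lost its call with total counts only (adjusted p = 0.133). The remaining call, Sirt6, was lower (-0.95 ± 0.31, adjusted p = 0.0275) and was lost without either control or siRNA replicate 1 (adjusted p = 0.0765, 0.127 and 0.217).

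Crotonyl-CoA is made in fatty acid and amino acid breakdown, or from crotonate by acyl-CoA synthetases. Of 30 enzymes of its metabolism and readers of the mark, 10 fell and 3 rose, with a median of -0.24 that became 0.24 with total counts only (6 falls, 8 rises). With any 1 library left out 1 to 2 rose and the median was -0.43 to -0.02. Hadh, a mitochondrial beta-oxidation dehydrogenase, read 204 and 222 CPM in controls against 52.8 and 61.5 CPM under siRNA (-1.89 ± 0.28, adjusted p = 0.000115). Echs1, the enoyl-CoA hydratase that consumes crotonyl-CoA, read 76.2 and 79.2 CPM in controls against 27.9 and 25.3 CPM under siRNA (-1.55 ± 0.30, adjusted p = 0.00105). For both enzymes the siRNA libraries were below the controls. The acyl-CoA dehydrogenases fell too, Acadm from 663 and 610.4 CPM to 342 and 298 CPM (-0.99 ± 0.17, adjusted p = 0.000491) and Acadl from 224 and 263 CPM to 85.2 and 71.4 CPM (-1.64 ± 0.31, adjusted p = 0.000909). Acss2, a synthetase that can charge crotonate, had no call, at 11.3 and 9.65 CPM in controls against 14.6 and 11.97 CPM under siRNA (0.33 ± 0.36, adjusted p = 0.522). Mllt3, which encodes the YEATS-domain reader AF9, rose from 3.29 and 1.5996 CPM to 11.4 and 12.4 CPM (2.28 ± 0.38, adjusted p = 0.000297).

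Genes of DNA and histone methylation are given beside the same all-gene shares. Of 17 DNA methylation genes, 5 fell and 4 rose (8 rises and 3 falls with total counts only, 0 to 2 rises and 3 to 5 falls with any 1 library left out). Tet2, a 5-methylcytosine dioxygenase, read 126 and 113 CPM in controls against 13.5 and 12.9 CPM under siRNA (-3.18 ± 0.27, adjusted p = 1.53e-06). Of 42 genes of Polycomb and histone methylation, 9 fell and 6 rose (14.3% rises, near the 13.6% of all genes), with 4 and 13 under total counts only, and the median of -0.12 was 0.03 with DESeq2 size factors and 0.37 with total counts. With any 1 library left out 2 to 5 rose and 5 to 9 fell. Jarid2, an accessory subunit of PRC2, read 283 and 244 CPM in controls against 55.2 and 57.7 CPM under siRNA (-2.22 ± 0.34, adjusted p = 0.000173). Kmt2a, the H3K4 methyltransferase MLL1, rose from 0.770 and 0.827 CPM to 15.7 and 12.5 CPM (4.12 ± 0.77, adjusted p = 0.00087).

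Imprinted and germline genes were more often higher than lower. Of 42 imprinted genes, 17 rose and 1 fell (median 1.47, 10 to 13 rises with any 1 library left out). Phlda2, a placental growth restrictor, read 8.06 and 4.74 CPM in controls against 89.5 and 242 CPM under siRNA (4.70 ± 0.62, adjusted p = 4.79e-05). Cdkn1c, the cyclin-dependent kinase inhibitor p57, read 2.05 and 0.772 CPM in controls against 25.5 and 72.2 CPM under siRNA (5.11 ± 0.62, adjusted p = 2.28e-05). Impact, a regulator of GCN2, rose from 134 and 132 CPM to 638 and 423 CPM (1.99 ± 0.25, adjusted p = 3.01e-05), and the noncoding RNA Meg3 from 1.13 and 1.16 CPM to 20.4 and 22.7 CPM (4.23 ± 0.66, adjusted p = 0.000174). H19 had no control count and read 1.59 and 0.613 CPM, at least 13.8-fold higher, with a call lost in each fit that left out 1 library (adjusted p of 0.0779 to 0.202). Allelic expression was not measured. Of 44 germline and cancer-testis genes, 20 rose and 3 fell (median 1.27, 13 to 18 rises with any 1 library left out). Brdt, the testis BET bromodomain protein, read 6.21 and 4.69 CPM in controls against 60.8 and 33.4 CPM under siRNA (3.08 ± 0.31, adjusted p = 5.98e-06). Hormad1, of meiotic chromosome axes, read 11.96 and 15.4 CPM in controls against 108 and 100.1 CPM under siRNA (2.92 ± 0.31, adjusted p = 7.98e-06). Tex11, a meiotic crossover gene, rose from 6.62 and 7.56 CPM to 62.9 and 41.9 CPM (2.87 ± 0.30, adjusted p = 7.87e-06). The germline list was also raised at the early 8-cell stage, where 20 members rose and 0 fell (median 2.03). Of its members 13 rose at both stages, though Brdt, Hormad1 and Tex11 had no early call. The test of late minus early change called 3 members higher and 5 lower at the late stage. The list holds Rhox, Mage and Xlr genes, whose near-identical copies share reads, so their single values are uncertain.

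Lists of earlier stages held more rises than falls at full depth, but at equal depth the maternal list did not. Of the 2-cell genes 27.6% rose and 13.8% fell, and of the maternal ones 21.3% and 6.38%. The shares over all genes were 13.6% and 14.3%, so the 2-cell falls were near theirs. Of 29 genes of the 2-cell activation wave, 8 rose and 4 fell (median 1.63), with 4 to 6 rises and 2 falls when any 1 library was left out. Arg2, a mitochondrial arginase, rose from 1.23 and 3.31 CPM to 33.2 and 20.9 CPM (3.56 ± 0.50, adjusted p = 7.1e-05). The multicopy members (Zscan4, Usp17l and Tdpoz genes) share reads. Of 47 maternal oocyte transcripts, 10 rose and 3 fell (median 0.93, 0.51 without siRNA replicate 2). With 1 library left out 3 to 7 rose, and 3 fell and 2 rose at equal depth. Nlrp4f, an oocyte NLR gene, rose from 3.03 and 2.54 CPM to 40.9 and 13.6 CPM (3.21 ± 0.51, adjusted p = 0.000204). Khdc3, of the subcortical maternal complex, fell from 757 and 814 CPM to 147 and 307 CPM (-1.78 ± 0.37, adjusted p = 0.00204), and Dppa3, the maternal factor also called Stella, from 7264 and 6734 CPM to 3010.1 and 3601 CPM (-1.08 ± 0.16, adjusted p = 9.999e-05).

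Genes seen in 1 group only were counted at equal depth, where a 0 does not exclude counts at full depth. In thinned libraries 235 genes had at least 5 counts in both siRNA libraries and 0 in both controls, against 19 genes in the reverse case. Of the 235, 101 (43%) were below 1 CPM in the controls of every stage, the late 8-cell one included, against 8.64% of all genes. At 1 CPM or above were 130 (55.3%) in late 2-cell controls and 27 (11.5%) in early 8-cell controls. Among the 2060 genes at least 2-fold higher, 80.7% reached 1 CPM in late 2-cell controls and 55.1% in early 8-cell controls. Among the 1594 at least 2-fold lower, 95.9% reached it in early 8-cell controls. The way the sets were chosen bears on these shares. A gene called lower must hold counts in late 8-cell controls, and a gene seen in siRNA only was chosen for a 0 there. The shares over all genes tested were 81.6% and 70.2% at those stages (late 2-cell and early 8-cell).

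**Figure D4:**
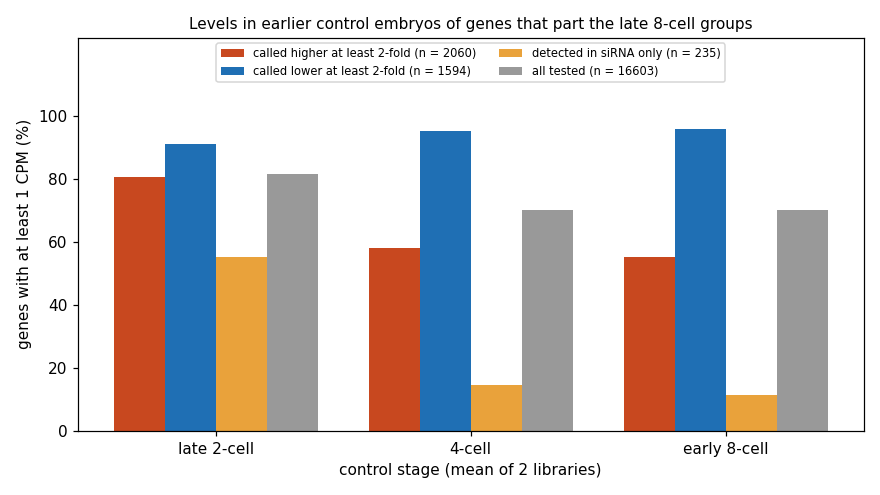
Share of genes that reached 1 CPM in control embryos of 3 earlier stages (mean of 2 libraries), for genes called at least 2-fold higher or lower at the late 8-cell stage, genes detected in siRNA libraries only, and all genes tested. Genes detected in siRNA only fall from 55.3% at the late 2-cell stage to 11.5% at the early 8-cell stage.

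Markers of other cell types were followed through the same libraries, beside the 13.6% of all genes called higher and 14.3% lower. Many failed the count filter. Those tested were 23 of 31 neuronal, 11 of 17 granulosa, 10 of 14 fibroblast, 11 of 18 blood and 4 of 11 sperm genes. A gene near 0 in controls can pass the filter through other libraries, and it can then rise but hardly fall. This bears on the counts of falls and on the medians of these lists. Of 23 neuronal genes, 13 rose and 2 fell (median 1.87, 3.15 without control replicate 1, 6 to 11 rises and 0 to 1 falls with any 1 library left out), with a summed level of 275 and 253 CPM in controls against 628 and 585 CPM under siRNA. Bex2, a small adaptor gene, read 1.64 and 2.21 CPM in controls against 57.9 and 60.9 CPM under siRNA (4.94 ± 0.68, adjusted p = 6.15e-05). Uchl1, a ubiquitin hydrolase that oocytes also hold, read 10.7 and 12.4 CPM in controls against 117 and 105 CPM under siRNA (3.26 ± 0.39, adjusted p = 2.12e-05). Nefl, a neurofilament, went from 1 control count to 4.51 and 6.21 CPM (adjusted p = 3.94e-05), whereas Mapt, which encodes tau, fell (-1.42 ± 0.45, adjusted p = 0.0241). The Mapt call was lost with total counts only (adjusted p = 0.112) and without control replicate 2, siRNA replicate 1 or siRNA replicate 2 (adjusted p = 0.184, 0.0968 and 0.0945). Granulosa and cumulus genes summed to 33.2 and 25.5 CPM in controls against 40.9 and 51.3 CPM under siRNA, with 5 of 11 higher (2 to 6 with any 1 library left out) and 0 lower. The granulosa median was 2.99, and 1.89 to 4.89 with any 1 library left out. Of the 5 that rose, Tnfaip6, a hyaluronan-binding protein of cumulus expansion, had no control count and 6.903 and 9.39 CPM under siRNA, at least 102-fold higher, and Fst, which encodes follistatin, rose from 0.308 and 0.0552 CPM to 5.58 and 3.19 CPM (4.49 ± 1.19, adjusted p = 0.00996), a call lost without control replicate 2 (adjusted p = 0.118). The other 3 were Cyp11a1, Ptx3 and Nr5a1. Amhr2, a defining marker that made up most of the summed level in controls, had no call. It read 30.5 and 22.3 CPM in controls against 20.4 and 27.4 CPM under siRNA (-0.12 ± 0.26, adjusted p = 0.761). The receptor gene Fshr, another defining marker, had no count in the 4 libraries. Fibroblast genes summed to 8.78 and 8.604 CPM in controls against 16.7 and 16.7 CPM under siRNA (3 of 10 higher, 0 to 1 with any 1 library left out, 0 lower), with Col3a1 and Dcn at 0 in all 4. Blood and immune genes summed to 51.4 and 55.8 CPM in controls against 41.7 and 45.05 CPM under siRNA, with Hba-a1 and Hbb-bs at 0. Of 11 tested, 2 were higher and 2 lower, each 18.2% and near the shares over all genes. Sperm genes summed to 30.6 and 30.1 CPM in controls against 66.6 and 60.5 CPM under siRNA (2 of 4 higher, 0 lower). Among 26 interferon response genes 8 rose and 2 fell (3 to 7 rises and 0 to 1 falls with any 1 library left out). Irf1, an interferon regulatory factor, rose from 0.513 and 0.110 CPM to 14.9 and 21.2 CPM (5.81 ± 0.63, adjusted p = 8.85e-06), and B2m, the light chain of MHC class I, from 63.3 and 70.5 CPM to 182 and 235 CPM (1.64 ± 0.20, adjusted p = 2.13e-05). Xist, the X-inactivation RNA, read 276 and 139.9 CPM in controls against 69.8 and 53.3 CPM under siRNA (-1.76 ± 0.93, adjusted p = 0.169). Xist was called lower with no filter on low counts (adjusted p = 6.7e-09) and with only the 4 libraries (adjusted p = 0.00762). The Y-linked genes Eif2s3y, Ddx3y, Kdm5d and Uty were each higher in both siRNA libraries than in both controls. Eif2s3y read 44.97 and 97.02 CPM in controls against 162 and 127 CPM under siRNA (1.02 ± 0.36, adjusted p = 0.0403). The part of cell or embryo makeup in the results was not tested.

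Some of the falls lay in genes with very high counts. Alppl2, an alkaline phosphatase of the early embryo, read 5544 and 5103 CPM in controls against 1057 and 1588 CPM under siRNA (-2.01 ± 0.25, adjusted p = 2.39e-05). Timd2, a TIM family receptor, read 9433 and 10250.5 CPM in controls against 3062 and 3223 CPM under siRNA (-1.65 ± 0.30, adjusted p = 0.000597). Genes of this paragraph were picked among those whose groups did not overlap, as was so for 66.2% of all genes, so that separation is no further result. Bhmt, which remethylates homocysteine with betaine, fell from 4130.4 and 4326 CPM to 911 and 681 CPM (-2.41 ± 0.37, adjusted p = 0.000153). Trim43a, a TRIM gene of the cleavage embryo, fell from 4649 and 5293 CPM to 1452 and 1343 CPM (-1.83 ± 0.21, adjusted p = 1.32e-05), with reads shared among its copies. Eif5a, the hypusinated translation factor, fell from 4841 and 4942 CPM to 1861 and 2025 CPM (-1.33 ± 0.16, adjusted p = 2.28e-05).

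The late response overlapped with that of the early 8-cell stage and differed from it in part. At the early stage 2741 genes (16.5%) were called. Of the 1363 early rises 558 (40.9%) rose again and 45 (3.30%) fell at the late stage, and of the 1378 early falls 749 (54.4%) fell again and 34 (2.47%) rose. The genes shared made up 24.6% of the late rises and 31.5% of the late falls. Across 16603 genes the 2 sets of log2 fold changes correlated at Pearson's r = 0.35, a description over genes that are not independent. The test of the difference itself called 1100 genes (6.63%), 499 (3.01%) with a higher and 601 (3.62%) with a lower change at the late stage. Of these 1100, 283 rose and 324 fell at the late stage without an early call, and 45 early rises were late falls. The count rests on few libraries. It was 204 without control replicate 2, 396 without control replicate 1, 608 without siRNA replicate 1, 575 without early control replicate 2, 625 without early siRNA replicate 2 and 700 without early siRNA replicate 1.

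Elf3 was among the reversals. Its change was 3.62 ± 0.50 at the early stage (adjusted p = 0.000113) and -3.05 ± 0.39 at the late stage (difference, adjusted p = 5.6e-05). The early rise started from low levels, 1.28 and 0.359 CPM in early controls against 8.79 and 11.2 CPM under siRNA. By the late stage Elf3 stood at 160.1 and 198 CPM in controls and at 17.3 and 25.3 CPM under siRNA. Nanog stood at -0.26 ± 0.49 early and -3.23 ± 0.53 late (adjusted p = 0.0194), Aqp3 at -0.25 ± 0.31 and -2.87 ± 0.33 (adjusted p = 0.00336), and Tet2 at 0.02 ± 0.26 and -3.18 ± 0.27 (adjusted p = 0.000337). These 3 genes had no call at the early stage. Krt8 was lower at the early stage only, at -2.88 ± 0.54 (adjusted p = 0.00138), with a called difference (adjusted p = 0.0355). When each of the 8 libraries was left out in turn, the call of the difference was lost in 5 of 8 fits for Nanog and in 5 of 8 for Krt8 (highest adjusted p of 0.0984 and 0.121), and in none for Elf3, Aqp3 and Tet2. Ep300 itself was lower at the early stage, at -2.15 ± 0.37 (adjusted p = 0.000819), and its change differed between the stages (adjusted p = 0.047), a call lost in 7 of those 8 fits. Its control level went from 41.5 and 82.9 CPM early to 22.03 and 15.2 CPM late. Its siRNA levels overlapped between the stages, at 11.7 and 16.4 CPM early and 16.2 and 13.2 CPM late. Trp53 was higher early (1.93 ± 0.29, adjusted p = 0.000247) but not late (adjusted p = 0.00532). Hmox1 rose more at the late stage, with 1.56 ± 0.39 early and 4.36 ± 0.40 late (adjusted p = 0.00623). Gpx3, Ldhb, Brdt and Phlda2 were called at the late stage but not at the early one, each with a called difference (adjusted p = 0.000337, 0.000354, 0.000337 and 0.00377). Ldha, Eno1 and Pkm rose at both stages, by 3.48 ± 0.31, 2.76 ± 0.26 and 2.98 ± 0.25 at the early one, with no call for a difference (adjusted p = 0.326, 0.549 and 0.174). Gata3 and Tfap2c were also called lower at the early stage, at -3.55 ± 0.76 and -1.77 ± 0.23. Cdx2 was called lower there too (adjusted p = 0.015), with 1.97 and 1.61 CPM in the controls and no count in either siRNA library. Of the 20 late falls of the pluripotency network, 15 were also called lower early. Among 87 ribosomal protein genes the test of the difference called 3 lower and 1 higher at the late stage.

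**Figure D5:**
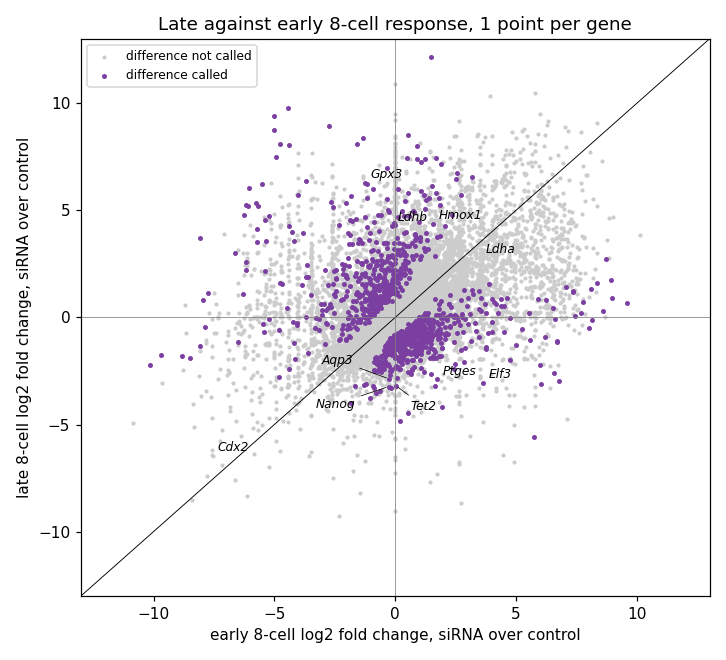
Log2 fold change of siRNA over control at the early (x axis) and late (y axis) 8-cell stage, 1 point per gene, purple where the difference was called and grey elsewhere. The line marks equal change, and values of genes without counts in a group depend on the fit. Elf3 lies at 3.62 early and -3.05 late, and Nanog at -0.26 and -3.23.

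Control embryos from the 4-cell to the early 8-cell stage gave a set of stage-dependent genes from libraries outside this comparison (183 genes, 1.1%, called with at least a 2-fold change). Of 101 genes that rose in the controls over that interval, 28 were higher and 8 lower in late siRNA embryos (median 0.12). Of 82 that fell, 23 were higher and 3 lower (median 0.90). Both sets held more rises than the 13.6% over all genes and fewer falls than the 14.3%, at 27.7% and 28% against 7.92% and 3.66%.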

How the data were processed

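Smart-seq2 RNA libraries of mouse embryos, 20 in 10 groups of 2, were deposited as a table of raw gene counts and a table of FPKM, each with 25208 genes. Per the submitters' processing notes, bcl2fastq 2.20.0.422, cutadapt 4.1, HISAT2 2.2.1 and Cufflinks 2.2 were used with the mm9 build. The program that made the deposited counts, its strand setting and its treatment of multi-mapping reads are not given in the sources used here, so overlapping, antisense and multicopy genes are uncertain. The authors' deposited FPKM values served only as an alternative.

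Counts were fitted with edgeR 4.0.16 (R 4.3.3), filterByExpr, TMM scaling and the quasi-likelihood test over all 20 libraries, which left 16603 genes and 10 residual degrees of freedom. P-values were adjusted by Benjamini-Hochberg over all genes tested, with a threshold of 0.05. The late minus early difference was a contrast in the same fit. Genes without counts in a group were given a bound from 3 counts over that group, for counting error only. Alternatives were DESeq2 1.42.0 size factors and its Wald test, total counts only, no filter, limma 3.58.1 on log2(FPKM + 1) for genes with at least 1 FPKM in 2 libraries, the 4 libraries alone, thinning to 3202332 counts, a replicate block, and leaving out each library. The scripts were tested on simulated data with known changes in the late comparison. Of 50 genes at each size, 0 were recovered at 1.5-fold, 4 at 2-fold, 31 at 4-fold and 38 at 8-fold, with 2 false calls. Few genes were changed there, which makes the adjustment stricter than in the data, where 28% were called. A missing call is therefore no evidence that a gene did not change. Depth ran from 3202332 to 22715816 counts in the 4 libraries. A rule picked the genes that could be named. It took Ep300, 25 genes followed whatever they did, and up to 4 called members of each list in each direction by adjusted p. Among genes called with at least a 2-fold change and no overlap, it also took the 10 with the highest CPM in each direction. From the same genes came the 5 with the largest change in each direction, at 10 CPM or more. The text prints only part of these. It leaves out Pgrmc1, an abundant gene that rose, and the 5 largest rises, Sncg, Zcchc12, Nap1l5, Nrk and Crabp1, each with 0 or 1 control count. Ly6f and Calm5, among the largest falls, are left out too. Calr, genes with the promoter element, Amhr2, Cyp11a1, Ptx3, Nr5a1, the Y-linked genes and markers at 0 were named after their values were seen. The gene lists and the comparison were chosen with earlier results of these data known.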

Additional observations from a re-analysis of the deposited data

Results flagged for a closer look

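The test of late minus early change called 1100 genes at an adjusted p under 0.05 (edgeR's quasi-likelihood test, Benjamini-Hochberg over 16603 genes), and 47 of the genes named above were among them. Values are differences of log2 fold changes, late minus early. The call held with each of the 8 libraries left out in turn for the higher differences of Gpx3 (7.54), Phlda2 (4.58), Ldhb (4.40), Lgals3 (3.93), Brdt (3.79), Aqp11 (3.17), Hmox1 (2.81), Hormad1 (2.71), Hspb1 (2.31), Tex11 (2.19) and Dnajc3 (1.92). It held likewise for the lower differences of Elf3 (-6.67), Ptges (-4.61), Tet2 (-3.20), Aqp3 (-2.63), Echs1 (-2.32), Slc2a3 (-2.21), Trp53 (-2.17), Hadh (-1.99), Hsp90aa1 (-1.71) and Mrpl17 (-1.499). For others the call was lost in at least 1 such fit. Higher at the late stage among these were Irf1 (4.13), Rpl3l (3.13), Nlrp4f (2.91), Klf17 (2.63), Krt8 (2.60), Mllt3 (2.06), Acadl (1.99), Vcl (1.93), Ep300 (1.79), Lamp2 (1.60), Sirt1 (1.33), Ctsl (1.32) and Fth1 (1.03). Lower were Nanog (-2.96), Fabp5 (-2.92), Elp3 (-1.65), Slc2a8 (-1.52), Phgdh (-1.44), Wdr12 (-1.30), Mybl2 (-1.27), Cldn6 (-1.19), Eif5a (-0.98) and Rpl5 (-0.95). The fitted differences of Tnfaip6 (14.23), Nefl (6.18) and Egr1 (6.91) rest on groups with few or no counts and depend on the fit.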

How the results depend on the processing

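Of 242 genes picked by the naming rule and called at the late stage, printed here or not, none changed direction under the alternatives run. Most were picked for a small adjusted p, a high level or a large change, so they do not stand for all calls. Their calls were lost for 34 with total counts only, 53 of 234 with limma on log2(FPKM + 1), 28 of 240 at equal depth and 36 to 55 when 1 library was left out. The limma losses include Tead4, Ocln, Wwtr1, Fgfr2, Spry2, Klf4, Hspa8, Cdk1, Aurka, Acadm, Acadl and Elovl6. Of all 4645 late calls, 3284 were kept with total counts only, 3116 at equal depth and 2717 with limma. Equal depth and limma tested fewer genes, 16290 and 14449 against 16603. The late rises numbered 3914 with total counts only and 1503 at equal depth. The late falls numbered 1018 with total counts only and 1050 with limma. Leaving out 1 library gave 2215 to 3425 calls, 831 to 1676 rises and 1384 to 2029 falls. A group of 1 library is then assumed to vary like the other groups. For the difference from the early stage, leaving out 1 library gave 204 to 1404 calls, 93 to 498 higher and 111 to 906 lower. The calls were 1921 (1066 higher) with DESeq2's Wald test, 1885 (910 higher, 975 lower) with no filter on low counts, 530 (255 and 275) from only the libraries compared, and 671 (326 lower) at equal depth. The lower differences were 387 with DESeq2 size factors, 322 with total counts only and 311 with limma, which gave 765 higher. With limma on FPKM some differences reversed, with Acadl -0.50 (adjusted p = 0.889), Cdx2 -2.28 (adjusted p = 0.00289), Ehhadh 1.16 (adjusted p = 0.0449), Enpep -2.70 (adjusted p = 0.00545) and Gstm1 3.44 (adjusted p = 0.0375). The FPKM column of early control replicate 2 followed its own counts poorly, with a correlation of 0.356 after centring each gene, and the cause of these reversals was not tested. Limma also gave positive medians for the FGF, crotonyl-CoA, Polycomb, amino acid, mitosis, autophagy and proteasome lists.

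The sources used here do not say whether the replicate numbers pair the libraries. Same-numbered deviations correlated at 0.038 over genes, and the fit with the replicate block called 4350 genes. With 2 libraries a group, a low correlation cannot exclude a shared culture or batch. Depth limits siRNA replicate 1 most, where 1 count is worth several times more CPM than in the other libraries. Each group holds 2 libraries, so the test borrows its spread from all 10 groups.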
